A study of Mus musculus with 12 samples.

Results

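The enzymes described here make and break down glutamate and glutamine, or carry glutamate on into asparagine and glutathione. They were taken by gene name: every probe that is not a control and that the 12 h scanner files call Glul, Glud, Oat, Prodh, Got2, Asns, Gclc or Gclm. This gave 8 of the 18116 gene names on the array, read by 11 of the 20280 probes tested, with 2 probes each for Glul, Got2 and Gclm and 1 for each other gene. Every one of the 11 was measured at all 4 time points. The fed and 72 h files call Glul by an older name, Glns, and give the Gclm probe A_65_P08136 a clone name, while Glud is Glud1 in current annotation.

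RNA of the whole small intestine came from male FVB mice of 6 weeks of age that were fed, or fasted for 12, 24 or 72 h. All groups were kept in metabolic cages and killed in the same morning hour, and no allele or drug beyond the strain and the fast is named. An infrared lamp warmed the mice from 24 h on, so that warming goes with the longer fasts. Each array held the RNA of 2 mice pooled and labelled with Cy3, against a Cy5-labelled reference from fed mice, with 3 arrays per time point and no dye swap. The reference was a pool of 6 fed mice, although for fed replicate 3 the labels disagree, its source naming only mice 5 and 6. The measure is the log2 ratio of Cy3 over Cy5, in which 1 unit is a doubling. Changes count as called where limma's adjusted p, taken over all probes, was below 0.05.

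Glutamine is a main fuel of the enterocyte, the absorptive cell of the gut lining. It is turned into glutamate, which glutamate dehydrogenase and the transaminases feed into the citric-acid cycle, while ornithine and proline are further sources of glutamate. Glutamine synthetase runs the other way and builds glutamine from glutamate and ammonia, and glutamate-cysteine ligase joins glutamate to cysteine in the first step of glutathione synthesis.

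The arrays were not alike in every respect. The median Cy5 intensity was 124 to 142 on the fed and 72 h arrays and 392 to 627 on the 12 h and 24 h arrays, whose files also have another layout. Between fed and 72 h arrays the Cy5 reference, which should be the same everywhere, was called different for 0% of the probes. The share was 21.9% between 12 h and fed and 20.4% between 24 h and fed. The reference was called different for 14.3% between 24 h and 12 h, although their files are of the same kind. For 72 h the share was 9.19% against 12 h and 13.8% against 24 h. For 12 h or 24 h against fed or 72 h, the fasting time and the kind of file cannot be told apart. The Cy5 change is therefore given beside many of these results, though not all. The array of 12 h replicate 3 stood apart, since its Cy5 values correlated with those of the other arrays at a median r of 0.817, against 0.904 to 0.949 for each other array. On 12 h replicate 1, 5.42% of the probe spots were marked as outliers and left out, and they include one Glul probe and the probes of Glud, Oat and one of Gclm.

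Genes of the enterocyte gave a measurable signal. The 7 enterocyte probes sum to 97400 to 143000 units of normalized Cy3 intensity on the fed arrays and 113000 to 119000 at 72 h, and none of them was dim on all arrays. At 12 h against fed 1 was called higher, Anpep (3.43, adjusted p = 0.016), and 1 lower, Lct (-0.98), beside 10.9% of all probes. The Lct value rests on a single fed array after outlier spots were left out. Anpep gave 1.30 in Cy3 (adjusted p = 0.081) and -2.13 in Cy5 (adjusted p = 0.072). Of 9 smooth muscle probes, 5 were called higher at 12 h than in fed (4.9% of all probes), and the 9 summed to 8050 to 9470 against 6990 to 8190. In Cy3 alone 3 were higher (6.27% of all probes) and 1, Cnn1, was lower. The Cy5 reference was called for 4, among them Acta2 (-1.42, adjusted p = 0.03) and Actg2 (-1.09, adjusted p = 0.035), which were lower. The sum of the 4 B and plasma cell probes was 2680 to 4200 in fed and 707 to 854 at 72 h, and 2 of the 4 were called lower (5.8% of all probes). The 4 goblet cell probes summed to 8750 to 11900 in fed and 18800 to 21500 at 24 h, where 2 were called higher (3.79% of all probes). Of the 4, 1, Agr2, was lower at 72 h than in fed (-1.45). The 2 liver probes summed to 290 to 482 in fed and 710 to 1100 at 72 h, where Alb was higher (1.29, adjusted p = 0.0015). The part of these cell types in the results below was not tested. In whole tissue, fewer cells of a type and less RNA per cell cannot be told apart.

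Asns stood out at 12 h, and Glul, Glud and Oat at 72 h. At 12 h against fed, 5 of the 11 probes were called, beside 10.9% of all probes. Asns and 1 Got2 probe were higher (4.9% of all probes), and Glud and both Gclm probes were lower (6.02%). At 24 h against fed 1 Glul probe was called, higher, beside 10.1% of all probes (3.79% higher and 6.26% lower). After 72 h, 5 probes differed from fed, beside 10.6%. Both Glul probes, Glud and Prodh were higher (4.8% of all probes) and Oat was lower (5.8%). From 12 h to 24 h, 2 probes were called higher and 1 lower, against 2.92% of all probes (1.23% higher, 1.69% lower). From 12 h to 72 h, 5 were higher and 2 lower, against 10.8% (5.84% higher, 4.92% lower). From 24 h to 72 h, 3 were higher and 1 lower, against 10.6% (5.87% higher, 4.73% lower). These 6 comparisons share their groups and are not independent of each other. The groups did not overlap for 8 of 11 probes at 12 h against fed (30.8% of all probes), 5 at 24 h (40.4%) and 8 at 72 h (41.8%). Between fasting times they did not overlap for 5 probes from 12 h to 24 h (23.6%), 8 from 12 h to 72 h (31.8%) and 8 from 24 h to 72 h (41.9%). Over the 11 probes the median log2 change from fed was 0.33 after 12 h, 0.29 after 24 h and 0.63 after 72 h, while that of all probes was -0.02, 0.02 and 0.01.

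**Figure D1:**
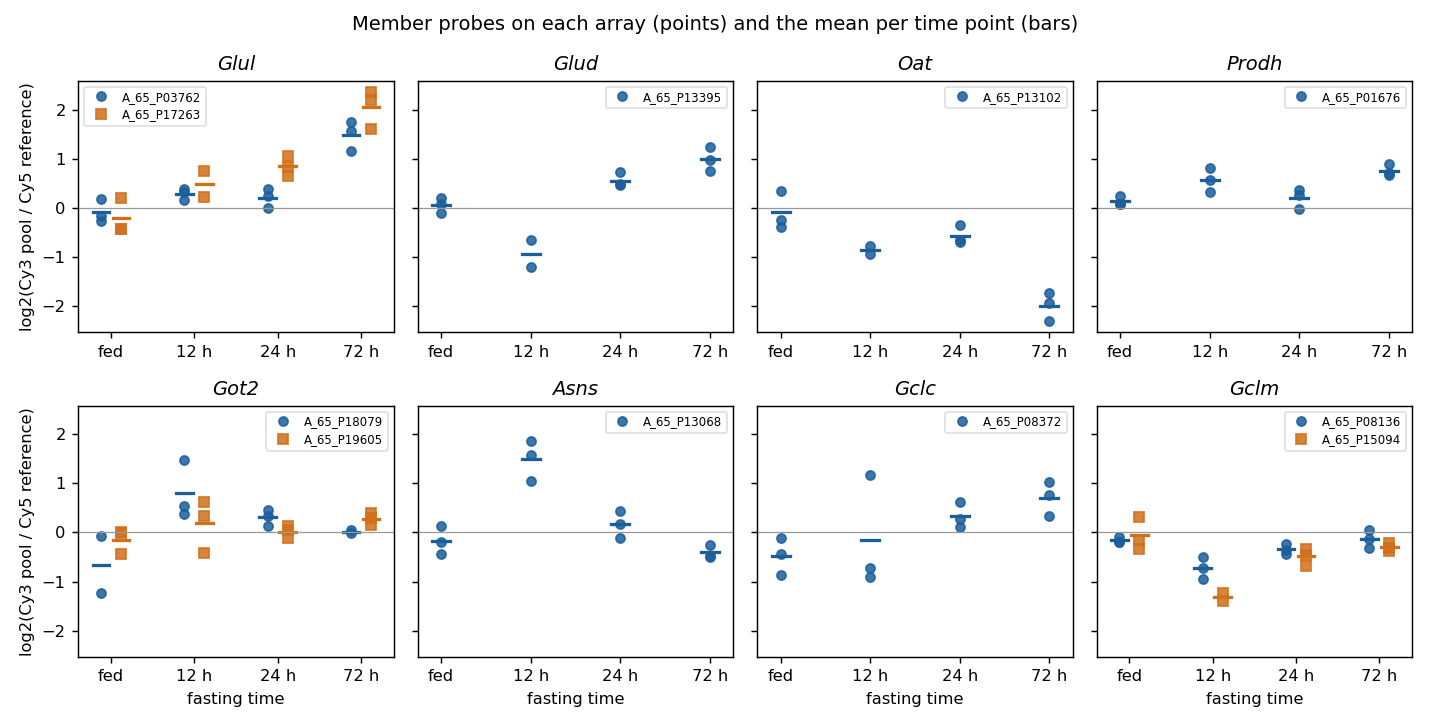
The log2 ratio of Cy3 (fasted or fed pool) over Cy5 (fed reference) on each array, by fasting time, for the 8 genes; each point is 1 array, the short bars are means, and the 2 colours are the 2 probes of a gene. Glul climbs to between 1.15 and 2.35 at 72 h, Oat falls to between -2.30 and -1.74, and Asns stands high at 12 h alone, between 1.04 and 1.86.

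Glul encodes glutamine synthetase, the enzyme that makes glutamine in the body. By probe A_65_P17263 its log2 ratio was -0.43, -0.43 and 0.21 on the fed arrays and 2.20, 2.35 and 1.61 after 72 h. Between these lay 12 h, at 0.76 and 0.23, and 24 h, at 0.64, 1.06 and 0.83. By probe A_65_P03762 it was -0.27, -0.17 and 0.18 in fed, 0.33, 0.39 and 0.15 at 12 h, 0.24, -0.01 and 0.39 after 24 h and 1.57, 1.74 and 1.15 at 72 h. In both probes the 72 h arrays lay above all arrays of every other time point.

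Glul rose 4.83-fold between fed and 72 h by A_65_P17263 (log2 change 2.27 ± 0.24 SE, adjusted p = 0.00017) and 2.97-fold by A_65_P03762 (1.57 ± 0.19, adjusted p = 0.00031). Both probes were also called at 72 h against 12 h, at 1.56 ± 0.27 and 1.20 ± 0.19, and against 24 h, at 1.21 ± 0.24 and 1.28 ± 0.19. Against 24 h, Cy3 gave 1.60 (adjusted p = 0.0012) for the first and 0.74 (adjusted p = 0.014) for the second. The Cy5 changes there were 0.38 (adjusted p = 0.17) and -0.54 (adjusted p = 0.053). Without 72 h replicate 1 the first probe's change from 24 h had an adjusted p of 0.052. At 24 h against fed the first probe rose 2.09-fold (1.06 ± 0.24, adjusted p = 0.018), whereas the second gave 0.29 ± 0.19 (adjusted p = 0.34). The call of the first was lost without fed replicate 1, fed replicate 2 or 24 h replicate 2, with an adjusted p up to 0.075. Neither probe was called at 12 h against fed, with 0.71 ± 0.27 (adjusted p = 0.10, 2 arrays at 12 h) and 0.38 ± 0.19 (adjusted p = 0.20). In Cy3 alone both probes were higher at 12 h and 24 h. A_65_P17263 rose by 1.26 at 12 h (n = 2 arrays there, limma adjusted p = 0.0095) and by 1.18 at 24 h (adjusted p = 0.0056), with Cy5 changes of 0.55 (adjusted p = 0.063) and 0.12 (adjusted p = 0.68). The Cy3 value of A_65_P03762 was higher than in fed by 1.01 at 12 h (adjusted p = 0.0022) and by 1.19 at 24 h (adjusted p = 0.00065), but its Cy5 value was higher too, by 0.63 (adjusted p = 0.022) and 0.89 (adjusted p = 0.0034). At 72 h the Cy3 change was 1.92 and the Cy5 change 0.35 (adjusted p = 1.0). Over 11 arrays the 2 probes correlated at r = 0.933.

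**Figure D2:**
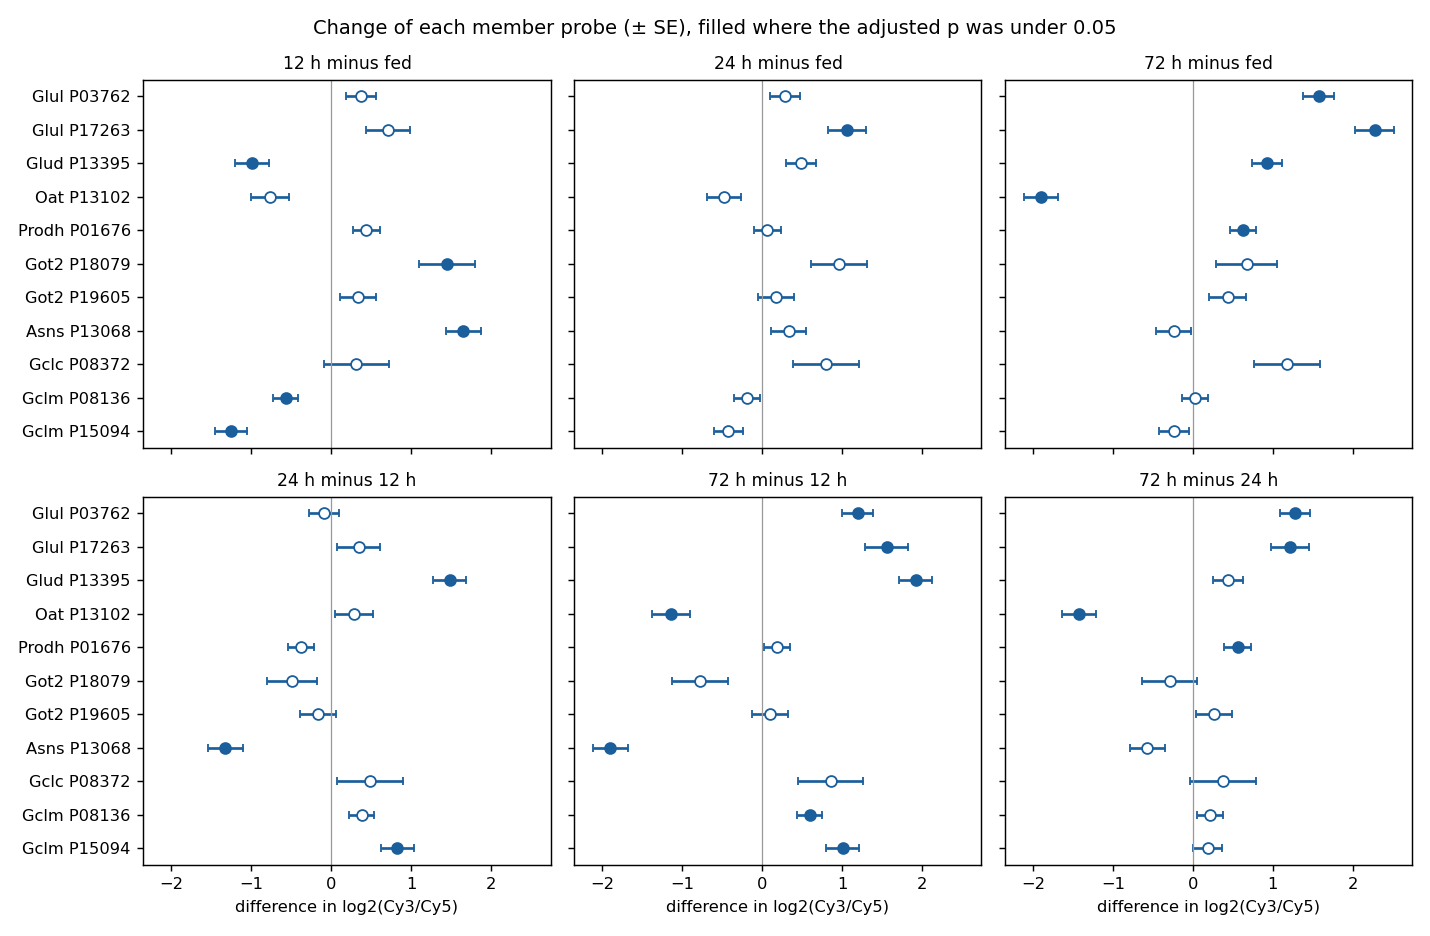
The change of each member probe in the 6 comparisons, as the difference in log2(Cy3/Cy5) on the horizontal axis with the SE as a bar; filled points have an adjusted p under 0.05. Glul and Glud lie to the right and Oat to the left in the comparisons of 72 h with fed, and Asns turns from 1.65 at 12 h against fed to -1.32 at 24 h against 12 h.

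Glud encodes glutamate dehydrogenase of the mitochondrion, which interconverts glutamate and 2-oxoglutarate with release or capture of ammonia. Its log2 ratio was 0.07, -0.10 and 0.21 in fed, -0.66 and -1.21 on the 2 arrays of 12 h that gave a value, 0.48, 0.72 and 0.46 after 24 h and 0.98, 0.76 and 1.23 at 72 h. The 12 h arrays lay below every other array, and the 24 h and 72 h arrays lay above all fed ones.

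Glud rose 1.90-fold between fed and 72 h (log2 change 0.93 ± 0.19 SE, adjusted p = 0.0068), with a Cy3 change of 1.14 and a Cy5 change of 0.21. With median centring in place of quantile normalization this change was 0.22 with an adjusted p of 0.65, and the call was lost. At 24 h against fed it was 0.49 ± 0.19 (adjusted p = 0.11). At 12 h against fed it was called lower, by -0.99 ± 0.21 (adjusted p = 0.013). The Cy3 channel alone gave -0.44 there (adjusted p = 0.17), and the Cy5 reference was higher by 0.55 (adjusted p = 0.051). Without fed replicate 3 the adjusted p was 0.052, and without 12 h replicate 3 the value was -0.72 (adjusted p = 0.068) on a single 12 h array, which was assumed to vary like the others. From 12 h to 24 h, with files of the same kind, Glud was higher by 1.48 ± 0.21 (adjusted p = 0.0034), and by 1.05 in Cy3 (adjusted p = 0.013). Its Cy5 change there was -0.43 (adjusted p = 0.13).

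Oat and Prodh stand at the entries from ornithine and proline. Oat encodes ornithine aminotransferase, which moves an amino group from ornithine to 2-oxoglutarate and which, in the gut, also runs towards ornithine and citrulline. Its log2 ratio was -0.24, -0.39 and 0.35 in fed, -0.94 and -0.77 at 12 h, -0.70, -0.36 and -0.65 after 24 h and -2.30, -1.74 and -1.93 at 72 h. The 72 h arrays, at -1.74 and below, did not overlap with the others, whose lowest value was -0.94.

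Oat fell by 1.90 ± 0.21 on the log2 scale at 72 h against fed, or 3.73-fold (adjusted p = 0.00026). It was also lower at 72 h than at 24 h, by -1.42 ± 0.21 (adjusted p = 0.0019), and than at 12 h, by -1.13 ± 0.24 (adjusted p = 0.01). In Cy3 these 3 changes were -1.62, -1.25 and -1.21, and no Cy5 change of Oat was called. The change from 12 h was -0.98 without 72 h replicate 1 (adjusted p = 0.056) and -0.64 with median centring (adjusted p = 0.32). The value at 12 h against fed, -0.77 ± 0.24, missed the threshold (adjusted p = 0.055), and the value at 24 h was -0.48 ± 0.21 (adjusted p = 0.17). Oat thus moved against Glul at 72 h, the 2 genes having the largest changes of opposite sign among the members.

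Prodh encodes proline dehydrogenase, the first step from proline to glutamate. Its log2 ratio was 0.07, 0.08 and 0.24 in fed, 0.82, 0.33 and 0.57 at 12 h, -0.02, 0.36 and 0.26 after 24 h and 0.67, 0.90 and 0.70 at 72 h. The 12 h and 72 h arrays lay above all fed arrays, and the 24 h arrays overlapped them.

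At 72 h Prodh was 1.54-fold higher than in fed (0.63 ± 0.17, adjusted p = 0.028) and 1.48-fold higher than at 24 h (0.56 ± 0.17, adjusted p = 0.046). Both calls are weak: the first was lost on leaving out fed replicate 1 or 2 or any 72 h array, with an adjusted p up to 0.11, and it stood at the threshold without fed replicate 3, at an adjusted p of 0.05. The second was lost on leaving out fed replicate 1 or 2, or any 24 h or 72 h array, with an adjusted p up to 0.16. At 12 h against fed the change was 0.44 ± 0.17 (adjusted p = 0.10), while the Cy3 channel alone gave 0.60 (adjusted p = 0.042).

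Got2, the mitochondrial aspartate aminotransferase, exchanges amino groups between glutamate and aspartate and is part of the malate-aspartate shuttle. By probe A_65_P18079 its log2 ratio was -0.08 and -1.24 on the 2 fed arrays that gave a value, 0.37, 0.54 and 1.48 at 12 h, 0.14, 0.46 and 0.33 after 24 h and 0.04 and -0.01 at 72 h. The fed values lie more than 1 log2 unit apart, and the 12 h arrays lay above both.

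The probe was 2.73-fold higher at 12 h than in fed (1.45 ± 0.35, adjusted p = 0.023). The call was kept under 8 of 13 alternatives, and lost under median centring, the scanner software's ratio, only the 2 time points, no moderation and the replicate block, with an adjusted p up to 0.14. Without fed replicate 3 the value was 0.87 (adjusted p = 0.19), and without 12 h replicate 3 it was 1.11 (adjusted p = 0.039). The Cy3 change was 0.83 (adjusted p = 0.034) and the Cy5 change -0.62 (adjusted p = 0.11). The other probe, A_65_P19605, was not well above background on any fed array. By group means of the Cy3 channel, where the fed arrays have only a bound, it was at least 1.41-fold higher at 12 h, 1.23-fold at 24 h and 1.14-fold at 72 h. These bounds carry no error. The Cy5 reference of this probe was higher too, by 0.50 at 12 h (adjusted p = 0.19), 0.46 at 24 h (adjusted p = 0.25) and 0.10 at 72 h. The ratio of A_65_P19605 was not called in any comparison (0.33 ± 0.23 at 12 h, adjusted p = 0.35). Over 10 arrays the 2 probes correlated at r = 0.696.

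Asns encodes asparagine synthetase, which passes the amide group of glutamine to aspartate and is a classic target of the amino-acid response, the program that the transcription factor ATF4 drives when amino acids are short. The 250 bases upstream of its start site in RefSeq (GRCm38.p6, minus strand) are shown because the element through which that response acts on Asns was looked for in them. Capitals mark TGATGAAAC, the amino-acid response element, whose first base lies 23 bases before the start site.
Asns, chr6:7693210-7693459: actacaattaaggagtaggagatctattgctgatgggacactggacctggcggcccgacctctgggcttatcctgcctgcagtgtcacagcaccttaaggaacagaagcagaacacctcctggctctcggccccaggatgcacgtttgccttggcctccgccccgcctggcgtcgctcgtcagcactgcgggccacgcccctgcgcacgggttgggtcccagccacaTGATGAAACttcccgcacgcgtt
The 9 letters, searched on both strands, occur in 0.213% of the 32851 RefSeq promoters of this length, and in Asns alone among the 7 member genes that the table holds. A match of letters describes the sequence and is no proof of use.

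The log2 ratio of Asns was -0.20, -0.43 and 0.13 in fed, 1.57, 1.04 and 1.86 at 12 h, -0.11, 0.43 and 0.18 after 24 h and -0.49, -0.26 and -0.47 at 72 h. Each 12 h array lay above every array of the other time points, and the 72 h arrays lay below those of 24 h.

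Asns rose 3.15-fold from fed to 12 h (1.65 ± 0.22 SE, adjusted p = 0.002). It was 2.50-fold lower at 24 h than at 12 h (-1.32 ± 0.22, adjusted p = 0.0066), with files of the same kind, and 3.72-fold lower at 72 h than at 12 h (-1.89 ± 0.22, adjusted p = 0.00037). The Cy5 change was 0.17 (adjusted p = 0.53) from 12 h to 24 h and 0.59 (adjusted p = 0.054) from 12 h to 72 h. In Cy3 the change from 12 h to 72 h was -1.31 (adjusted p = 0.00026). Neither 24 h nor 72 h differed from fed by a called amount, at 0.33 ± 0.22 (adjusted p = 0.35) and -0.24 ± 0.22 (adjusted p = 0.54). In the Cy3 channel the rise at 12 h was 1.14 (adjusted p = 0.00074) and the fall to 24 h was -1.15 (adjusted p = 0.0069), whereas the Cy5 reference was lower at 12 h by -0.52 (adjusted p = 0.051). Without 12 h replicate 3 the rise was 1.47 (adjusted p = 0.003). The call at 12 h was lost only when the 2 time points were fitted alone (adjusted p = 0.079), where 0% of all probes were called.

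Gclc and Gclm encode the catalytic and the modifier subunit of glutamate-cysteine ligase, and Gclm is a textbook target of NRF2, which acts through antioxidant response elements. The upstream bases of Gclm (GRCm38.p6, plus strand) are shown for this reason, with the match to the core TGACNNNGC in capitals. The match reads TGACGGTGC on the opposite strand, and its first base as printed lies 134 bases before the start site.
Gclm, chr3:122245307-122245556: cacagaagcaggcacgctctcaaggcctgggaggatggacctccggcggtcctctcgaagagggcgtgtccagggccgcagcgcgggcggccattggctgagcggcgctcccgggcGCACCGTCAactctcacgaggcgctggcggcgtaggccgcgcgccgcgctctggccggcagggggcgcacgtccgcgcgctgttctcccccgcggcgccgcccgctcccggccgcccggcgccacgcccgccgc
The core occurs in 10.2% of the promoters and in 3 of the 7 member genes held, Gclm, Asns and Prodh. The glucocorticoid receptor half-site AGAACA was also searched, on both strands, and occurs in 16.1% of the promoters and in 2 of the 7, Asns and Gclm.

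Gclc gave log2 ratios of -0.43, -0.12 and -0.86 in fed, -0.90, -0.72 and 1.17 at 12 h, 0.28, 0.62 and 0.11 after 24 h and 0.76, 0.33 and 1.03 at 72 h. The 24 h and 72 h arrays all lay above the fed arrays. At 12 h a single array, replicate 3, lay far from the other 2, with a log2 Cy5 value of 6.98 against 8.98 and 9.44 and a log2 Cy3 value of 8.15 against 8.08 and 8.72.

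With all arrays, no change of Gclc was called in the ratio, and 72 h against fed gave 1.18 ± 0.41 (2.26-fold, adjusted p = 0.085). That comparison was called under some other settings with every array kept, at 1.46 with loess (adjusted p = 0.011) and with the scanner software's log ratio (adjusted p = 0.026). It was also called at 1.04 with array weights, whose estimate stopped before it converged (adjusted p = 5e-04), and at 1.18 with only the 2 time points (adjusted p = 0.0089). It was not called without background correction, with plain background subtraction, median centring, outlier spots kept or dim probes left out. Nor was it called without moderation, with the replicate block or directly against the reference. Without 12 h replicate 1 its adjusted p was 0.049. Without 12 h replicate 3, which enters the estimate of the spread for every comparison, the same 1.18 had an SE of 0.21 and an adjusted p of 0.0018, and 24 h against fed (0.80, adjusted p = 0.019), 24 h against 12 h (1.14, adjusted p = 0.019) and 72 h against 12 h (1.52, adjusted p = 0.0017) were called as well. The Cy3 channel with all arrays gave 1.58 ± 0.25 at 72 h against fed (3.00-fold, adjusted p = 0.0015), 1.91 ± 0.25 against 12 h (adjusted p = 0.00023) and 0.97 ± 0.25 against 24 h (adjusted p = 0.017). The Cy5 reference was higher there too, by 0.41, 1.05 (adjusted p = 0.14) and 0.60 (adjusted p = 0.39). The ratio gave 0.86 against 12 h (adjusted p = 0.19) and 0.37 against 24 h (adjusted p = 0.61).

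Gclm by probe A_65_P15094 gave log2 ratios of -0.16, -0.34 and 0.32 in fed, -1.23 and -1.39 at 12 h, -0.68, -0.33 and -0.45 after 24 h and -0.32, -0.37 and -0.21 at 72 h. By probe A_65_P08136 it gave -0.19, -0.19 and -0.10 in fed, -0.50, -0.73 and -0.95 at 12 h, -0.44, -0.35 and -0.23 after 24 h and -0.32, -0.14 and 0.06 at 72 h. In both probes the 12 h arrays were lowest and did not overlap with those of any other time point.

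The first Gclm probe was lower at 12 h than in fed by -1.25 ± 0.21 (2.38-fold, adjusted p = 0.0052) and the second by -0.57 ± 0.16 (1.48-fold, adjusted p = 0.038). For the first, the Cy3 channel alone gave -0.24 (adjusted p = 0.58) and the Cy5 reference was higher by 1.01 (adjusted p = 0.0075). For the second, Cy3 gave -0.49 (adjusted p = 0.091) and Cy5 0.08, and the call was lost under 7 of 13 other ways of processing. Both probes were higher at 72 h than at 12 h, by 1.01 ± 0.21 (adjusted p = 0.0088) and 0.59 ± 0.16 (adjusted p = 0.031), although in Cy3 alone the first gave 0.33 (adjusted p = 0.42). The second lost its call without 12 h replicate 2 or 3 or without any 72 h array, with an adjusted p up to 0.12. From 12 h to 24 h the first was higher by 0.83 ± 0.21 (adjusted p = 0.047), a call that was lost on leaving out any of 10 arrays, with an adjusted p up to 0.14. Between fed and 72 h they gave -0.24 ± 0.18 (adjusted p = 0.47) and 0.03 ± 0.16 (adjusted p = 0.94). The difference between the 2 subunits was not tested. Over 11 arrays the 2 Gclm probes correlated at r = 0.90.

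Taken apart, the channels gave different counts. In Cy3, 6 of the 11 probes were called at 12 h against fed (15% of all probes), all higher (6.27%), 4 at 24 h (24.6%), all higher (11.1%), and 6 at 72 h (8.65%), 5 of them higher (4.05%). Between fasting times the Cy3 counts were 4 at 24 h against 12 h (8.2%), 7 at 72 h against 12 h (18.2%) and 6 at 72 h against 24 h (16.4%). In Cy5, which holds the reference, 2 probes were called at 12 h against fed (21.9% of all probes), 1 of Glul and 1 of Gclm, and 1 of Glul at 24 h (20.4%). In the other 4 comparisons limma called 0 Cy5 changes of members. Of all probes it called 0% at 72 h against fed, 14.3% at 24 h against 12 h, 9.19% at 72 h against 12 h and 13.8% at 72 h against 24 h. An unadjusted p under 0.05, a looser threshold whose share over all probes is not given here, was found for 1 member probe at 72 h against fed. It was found for 4 at 24 h against 12 h, 3 at 72 h against 12 h and 4 at 72 h against 24 h. The comparison of 72 h with fed has the same kind of file, and 0% of all probes were called in its reference. The absence of calls does not show that the reference was equal. Its Cy5 change was above 0 for 10 of the 11 member probes, with a median of 0.21, against 0.01 over all probes. In this comparison the ratio and Cy3 called the same 5 probes, Cy3 adding Gclc.

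**Figure D3:**
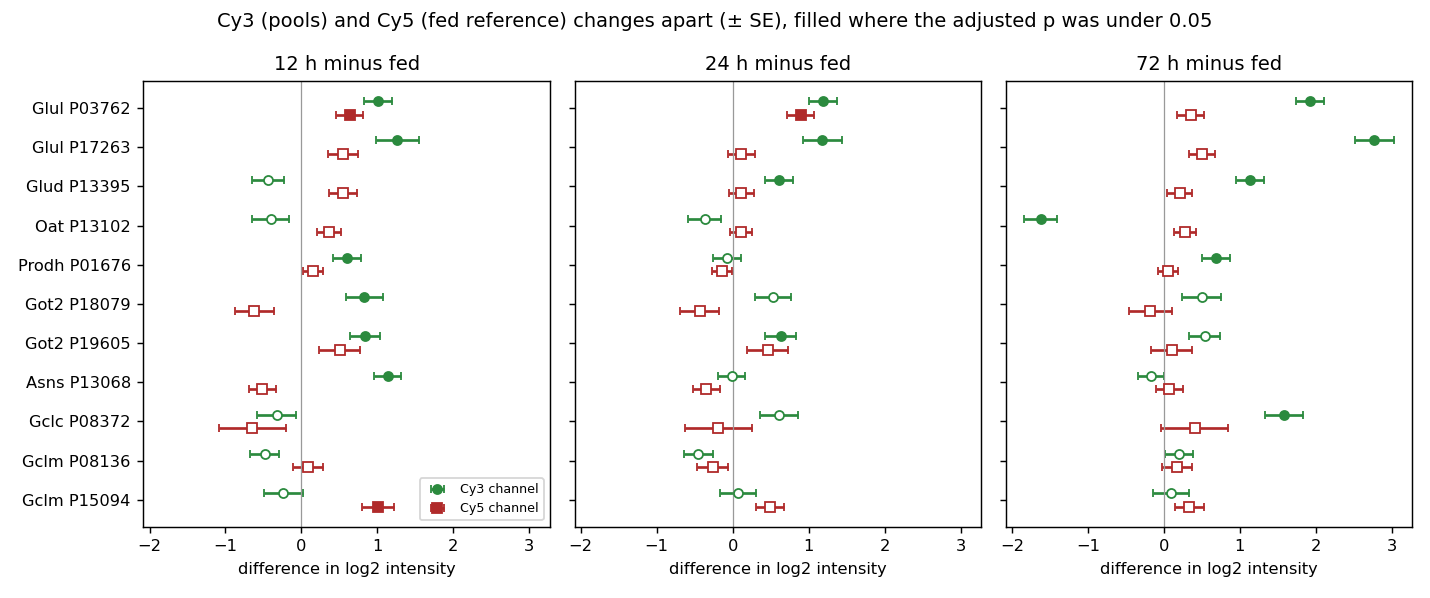
Changes in normalized log2 intensity against fed at 12, 24 and 72 h for each member probe, with Cy3 (the pools) as circles and Cy5 (the fed reference) as squares, SE as bars and filled symbols for an adjusted p under 0.05. The squares of Gclm A_65_P15094 and Glul A_65_P03762 lie to the right of 0 at 12 h, by 1.01 and 0.63, while at 72 h no square is filled.

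The members did not share one time course. Over the arrays, the log2 ratio of the brightest probe of each gene correlated between Glul and Prodh at r = 0.811 and between Glul and Oat at r = -0.832, while Asns and Glud gave r = -0.811 and Got2 and Gclm r = -0.884. These values are descriptions over 10 to 12 arrays that share 1 reference and 4 time points. The genes whose ratios were most like a member's over the same arrays were Egr1 (r = 0.954) and Pmaip1 (0.947) for Glul, Azin1 (0.978) and Lima1 (0.976) for Oat, and Sh3bgrl3 (0.937) and Prdx6 (0.932) for Asns. For Glud they were Rock1 (0.939) and Ptbp2 (0.934), for Prodh Myo5b (0.905) and Sptlc2 (0.834), and for Got2 Pcsk7 (0.986) and Eno1 (0.983). Gclc was most like Pcsk5 (0.917) and Sema5a (0.904), and Gclm most like Chd1l (0.985) and Ccnl2 (0.978).

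Of the other enzymes of glutamine, glutamate, proline and asparagine metabolism, few were called. Of 30 genes listed, 20 had a probe (21 probes), and 4.76% of these were called in each comparison with fed, against 10.1% to 10.9% of all probes. The count depends on the scaling, since 4 probes in place of 1 were lower at 72 h under loess, median centring and the scanner software's ratio, and 5 in place of 1 at 12 h under median centring. Those settings called 16.6%, 13.9% and 15.8% of all probes at 72 h, and median centring 14.9% at 12 h. Between 12 h and 72 h 3 of the 21 were called (14.3%, against 10.8%). After 72 h 1 was lower than in fed, Nadsyn1, a glutamine-using NAD synthetase (-0.56 ± 0.14, adjusted p = 0.022, with -0.23 in Cy3), and 0 were higher. At 24 h against fed 1 was higher, Aldh18a1, which starts proline synthesis from glutamate (1.25 ± 0.34, adjusted p = 0.036), and it was lower at 72 h than at 24 h (-1.47 ± 0.34, adjusted p = 0.016) and than at 12 h (-1.29 ± 0.34, adjusted p = 0.028). At 12 h against fed 1 was lower, the Got1 probe A_65_P16895 of the cytosolic aspartate aminotransferase (-0.89 ± 0.25, adjusted p = 0.038), but its Cy3 change was 0.12 and its Cy5 change 1.01. It was higher at 72 h than at 12 h (1.26 ± 0.25, adjusted p = 0.0077), again with a small Cy3 change, 0.37, beside a Cy5 change of -0.88. The other Got1 probe gave -0.13 ± 0.21 (adjusted p = 0.72). Aldh4a1 and Pycr1, the other enzymes between proline and glutamate, were called in no comparison of the ratio, with Aldh4a1 between -0.57 and 0.55 and Pycr1 between -0.10 and 0.41.

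Of the glutathione probes called at 72 h against fed most were lower, while for NRF2 targets the balance depended on the scaling. Of 24 glutathione probes (21 of 39 genes listed), 2 were higher and 7 lower at 72 h against fed, 37.5% against 10.6% of all probes. Both probes of Oplah, 5-oxoprolinase, which returns glutamate from the glutathione cycle, were higher, with A_65_P15047 at 2.02 ± 0.44 (adjusted p = 0.01). The glutathione transferase Gstp1 (-1.69 ± 0.23, adjusted p = 0.00084) was among those lower, although the files name it Gstp2, its close copy. The transferase Gsta4 was also among them, at -1.89, but this value rests on a single 72 h array after outlier spots were left out. Under 5 other scalings, chosen after the values were seen, 7 to 10 probes of the list were lower and 1 to 2 higher, with 7.59% to 16.6% of all probes called. Gss, glutathione synthetase, the second step after glutamate-cysteine ligase, gave -0.48 ± 0.25 (adjusted p = 0.25) and 0.12 ± 0.34 (adjusted p = 0.87) by its 2 probes, and Gsr, glutathione reductase, gave -0.17 ± 0.21 (adjusted p = 0.67). Of 21 NRF2-list probes (15 of 21 genes), 2 were higher and 6 lower (38.1%, against 10.6% of all probes) and 13 were not called. Under loess and under the scanner software's ratio 3 were higher and 4 lower, as in Cy3 alone, and under median centring 1 was higher and 7 lower. Between 24 h and 72 h the ratio gave 1 higher and 5 lower, whereas Cy3 alone gave 5 higher and 3 lower. Hmox1, haem oxygenase, was higher (1.05 ± 0.18, adjusted p = 0.0023), as was 1 probe of the autophagy receptor Sqstm1 (1.81 ± 0.42, adjusted p = 0.017), while its other probe gave 0.42 ± 0.22 (adjusted p = 0.27). The 2 probes of ferritin heavy chain Fth1 were lower, at -1.50 ± 0.27 and -1.45 ± 0.21, and Nqo1 gave 0.13 ± 0.22 (adjusted p = 0.76). Nfe2l2, which encodes NRF2, gave -0.98 ± 0.33 (adjusted p = 0.069) and was lower at 72 h than at 24 h by -1.75 ± 0.33 (adjusted p = 0.0053).

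For the amino-acid response list, the count at 12 h was near that of all probes. Of its 23 probes (20 of 31 genes), 2 were called at 12 h against fed, both higher, 8.7% against 10.9% of all probes: Nupr1, a stress-induced chromatin protein (1.63 ± 0.26, adjusted p = 0.0041), and Eif4ebp1, a repressor of cap-dependent translation (1.30 ± 0.27, adjusted p = 0.012). Atf4 itself gave -0.08 ± 0.18 (adjusted p = 0.81) and Trib3 -0.36 ± 0.25 (adjusted p = 0.37), and for Ddit3, Phgdh and Slc7a11 no probe was matched. Psat1, of serine synthesis, gave 0.50 ± 0.18 at 12 h against fed (adjusted p = 0.084) and was lower at 72 h than at 12 h by -1.02 ± 0.18 (adjusted p = 0.0037). Between 12 h and 72 h, 2 probes of the list were higher and 4 lower, 26.1% against 10.8% of all probes. The 4 that were lower, as Asns was, were Psat1, Nupr1 (-1.63 ± 0.26, adjusted p = 0.0024) and the alanyl- and seryl-tRNA synthetases Aars (-0.57 ± 0.17, adjusted p = 0.049) and Sars (-0.73 ± 0.21, adjusted p = 0.04, and 0.17 for its second probe), the last 2 genes named after their values were seen. Ddit4, an inhibitor of mTORC1, was 1 of the 2 that were higher at 72 h than at 12 h (2.59 ± 0.25, adjusted p = 0.00019). It was highest at 72 h, with 2.10 ± 0.25 against fed (adjusted p = 0.00031), which Asns was not. Under the 5 other scalings 1 to 2 probes of the list were higher and 2 to 4 lower between 12 h and 72 h. Those settings called 3.27% to 10.7% of all probes.

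Of 18 probes for carriers of glutamine, glutamate and aspartate (15 of 18 genes), 1 was called at 72 h against fed, Slc38a1, a sodium-coupled importer of glutamine, which was 1.97-fold higher (0.98 ± 0.16, adjusted p = 0.002). This is 5.56% of the list, against 10.6% of all probes. Loess, median centring and the scanner software's ratio added 2 to 3 lower calls there, with 13.9% to 16.6% of all probes called. At 24 h against fed 3 were higher and 1 lower (22.2%, against 10.1%), among them Slc25a22 at 1.22 ± 0.37 (adjusted p = 0.049), with a Cy3 change of 0.95 (adjusted p = 0.018), and Slc7a8 at 0.98 ± 0.25 (adjusted p = 0.027). The Cy3 change of Slc7a8 was 0.49 (adjusted p = 0.16) and its Cy5 change -0.49 (adjusted p = 0.029). With loess, median centring and the scanner software's ratio, 3 to 4 were lower and 1 to 3 higher at 24 h against fed. These settings called 16.1% to 19.7% of all probes there. Between 12 h and 72 h 1 was higher and 3 lower (22.2%, against 10.8%). Under the 5 other scalings 0 to 1 were lower, with 3.27% to 10.7% of all probes called. At 12 h against fed 1 was higher and 2 lower (16.7%, against 10.9%): the mitochondrial glutamate carrier Slc25a22 (1.34 ± 0.37, adjusted p = 0.035), 1 of the 2 probes of the ornithine carrier Slc25a15 (-0.94 ± 0.21, adjusted p = 0.016, the other at 0.49 ± 0.37, adjusted p = 0.40) and the aspartate-glutamate carrier Slc25a13 (-0.60 ± 0.13, adjusted p = 0.016). The Cy5 change of Slc25a22 there was -0.95 and its Cy3 change 0.38 (adjusted p = 0.35). The called Slc25a15 probe gave -0.50 in Cy3 (adjusted p = 0.14) and 0.44 in Cy5 (adjusted p = 0.061). Slc25a13 gave -0.55 in Cy3 (adjusted p = 0.049) and 0.05 in Cy5 (adjusted p = 0.85).

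**Figure D4:**
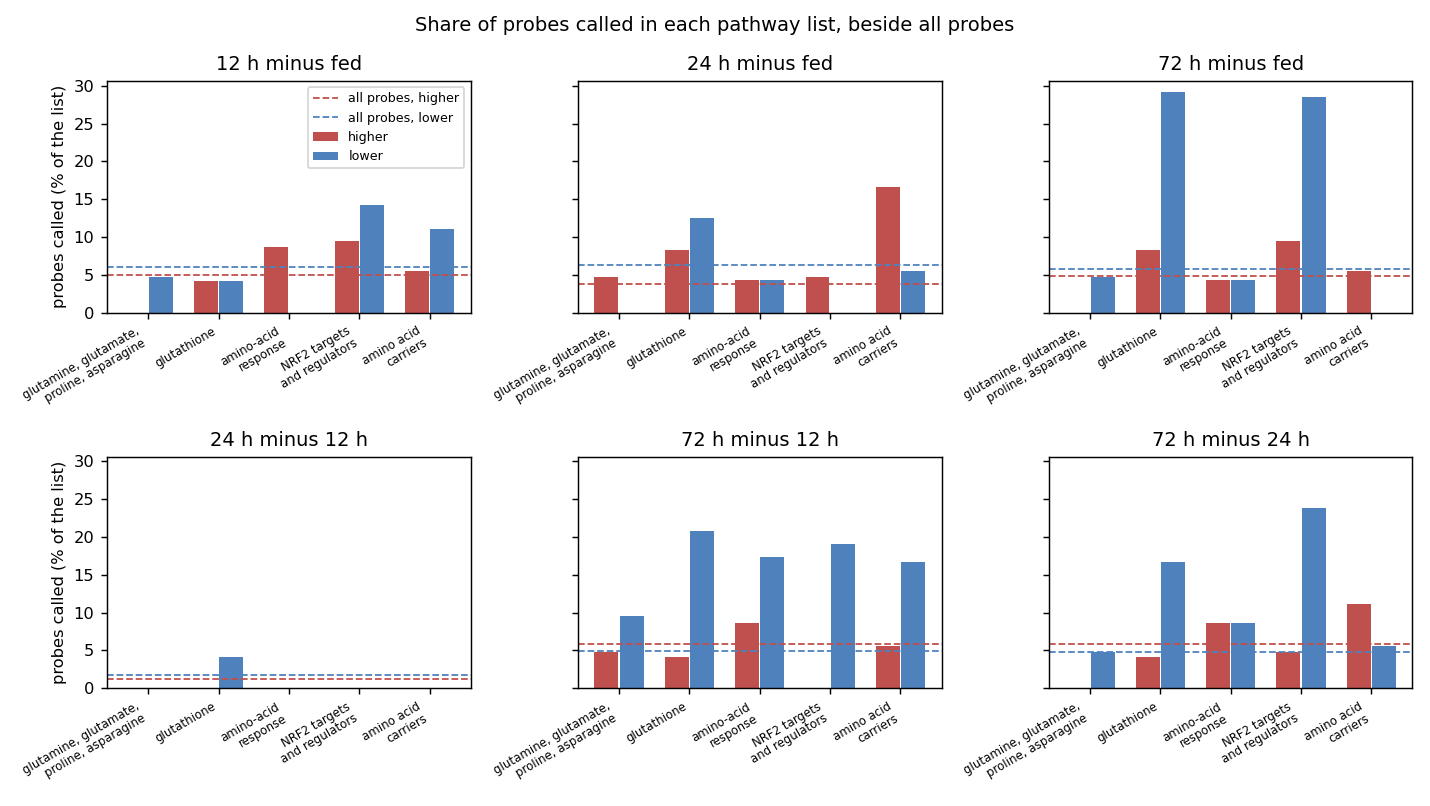
Percentage of the probes of each pathway list called higher (red) or lower (blue) in each comparison, with dashed lines for the same percentages over all probes. At 72 h against fed the glutathione list has 7 of 24 probes lower and the NRF2 list 6 of 21, whereas the other 3 lists have at most 1 probe in each direction.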

How the data were processed

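The authors deposited Feature Extraction 6.1.1 output of 12 two-colour arrays, with median foreground and background intensity per spot, neither corrected nor normalized, and flags for spots. The value table they deposited gives log10 ratios of Cy3 over Cy5 from that software, used as an alternative only; 1911 values with a moved decimal point were set back, none of a member probe. From the intensities, background was corrected with normexp (offset 50), and 1075 control spots, 91 spots marked Retired and outlier spots were left out of the 21446. The 24 channels were quantile normalized, and log2(Cy3/Cy5) was fitted in limma 3.58.1 (R 4.3.3, with the data.table package, version 1.17.8) with a mean per time point over all 12 arrays and Benjamini-Hochberg adjustment over all probes. Cy3 and Cy5 were fitted alike. The methods' Split-Factor analysis of variance was replaced by limma. The scripts were tested on simulated data.

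Members and lists were chosen with earlier results of these data known. Named genes are the members, 15 listed pathway genes, up to 3 called probes with the largest change per list and comparison, and the 2 genes most correlated with each member. Where a probe was dim on every array of a group, the fold is a bound, computed in Cy3 after loess and Aquantile normalization and open to dye bias. Current symbols come from the RefSeq annotation of GRCm38.p6, by gene number for 9946 probes and by accession for 136. Alternatives were other background corrections and normalizations, the software's log ratio, Cy3 alone, the test directly against the reference, other fits, spot and probe filters, a replicate block and leaving out each array. The number of arrays and their signal limit the precision. Plots were drawn with matplotlib.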

Additional observations from a re-analysis of the deposited data

Results flagged for a closer look

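Among the member probes, 14 differences between fasting times passed the test of the difference itself, so that the log2 ratio differed from fed by unlike amounts at these times. From 12 h to 24 h these were Asns (-1.32), Glud (1.48) and Gclm A_65_P15094 (0.83). From 12 h to 72 h they were Glul A_65_P03762 (1.20), Glul A_65_P17263 (1.56), Glud (1.92), Oat (-1.13), Asns (-1.89), Gclm A_65_P08136 (0.59) and Gclm A_65_P15094 (1.01). From 24 h to 72 h they were Glul A_65_P03762 (1.28), Glul A_65_P17263 (1.21), Oat (-1.42) and Prodh (0.56). All values are differences in log2(Cy3/Cy5), later time minus earlier time, and the adjusted p lay between 0.00036 and 0.047. Of all probes, 2.92% were called from 12 h to 24 h, 10.8% from 12 h to 72 h and 10.6% from 24 h to 72 h. In the comparisons with 72 h, the fasting time and the kind of file cannot be told apart. For Gclm A_65_P15094, Cy3 alone gave 0.31 from 12 h to 24 h (adjusted p = 0.46) and 0.33 from 12 h to 72 h (adjusted p = 0.42).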

How the results depend on the processing

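Of the 25 calls of a member probe, none changed direction under any alternative, and 265 of 311 recomputed values kept the call. Both Glul probes at 72 h against fed and 12 h, Glul A_65_P03762 and Oat at 72 h against 24 h, Oat at 72 h against fed, and Glud and Asns at 72 h against 12 h kept it under every alternative and without any 1 array. The number of member probes called at 12 h against fed, 5 (10.9% of all probes), became 3 with the scanner software's log ratio (7.86%). It became 0 with only the arrays of the 2 time points, where 0% of all probes were called. With array weights, whose estimate stopped before it converged, it was 8 (22.3%), and with the replicate block 3 (6.4%). At 24 h against fed, 1 (10.1% of all probes) became 3 with median centring (19.3%), 4 with Cy3 alone (24.6%) and 4 directly against the Cy5 reference (15.3%). It became 3 with only the 2 time points (16%), 0 without moderation (5.99%) and 4 with array weights (31.4%). At 72 h against fed, 5 (10.6% of all probes) became 3 with median centring (13.9%). At 24 h against 12 h, 3 (2.92%) became 0 with only the 2 time points (0.118%). Leaving out 1 array at a time gave 2 to 7 calls at 12 h against fed: 2 without fed replicate 3, with 3.14% of all probes called, and 3 without 12 h replicate 3, with 7.31%. At 24 h against fed it gave 0 to 4 calls: 0 without fed replicate 1 (2.89%) or 24 h replicate 2 (5.96%), and 4 without 12 h replicate 3 (19.7%). It gave 4 to 6 at 72 h against fed, 2 to 3 at 24 h against 12 h and 5 to 7 at 72 h against 12 h. At 72 h against 24 h it gave 2 to 5 (2 without 72 h replicate 1, with 2.72%). The 33 Cy3 calls ranged from 24 to 32 and the 3 Cy5 calls from 3 to 14, with 12, 14 and 7 without 12 h replicates 1, 2 and 3. Apart from 12 h against fed, the replicate block moved no count by over 1.5 times, and pools of equal number, which held different mice, deviated together at r between -0.297 and 0.128, so that the numbers do not pair them. At the methods' threshold, an unadjusted p under 0.01 and 1.4-fold, 8.23% of all probes were called at 24 h against 12 h, against 2.92%, and 13.1% to 13.9% in the other 5 comparisons. Of all probes called, the share higher differed by over 10 percentage points under median centring at 72 h against fed (31.7% against 45.3%), 24 h against 12 h (11.4% against 42.1%) and 72 h against 12 h (65.3% against 54.3%), under loess (25.8%) and the scanner software's ratio (26.5%) at 24 h against 12 h, and without background correction at 24 h against fed (48.7% against 37.7%). The causes were not tested. With 3 arrays a group, the number of arrays limits what could be called.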

Other observations

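A further probe, A_65_P15975, is named Gclc in the fed and 72 h files but carries an anonymous locus name in the 12 h files, so it is not counted among the members. Its log2 ratio was higher at 72 h than in fed by 1.08 ± 0.20 (adjusted p = 0.0052, limma) and than at 24 h by 0.69 ± 0.20 (adjusted p = 0.048). At 24 h against fed it gave 0.39 ± 0.20 (adjusted p = 0.23). After outlier spots were left out, only a single 12 h array gave a value for this probe. With that array alone, the change was -0.83 from fed to 12 h and 1.92 from 12 h to 72 h. The named Gclc probe gave 1.18 ± 0.41 at 72 h against fed.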
